A study of Homo sapiens with 12 samples.

Results

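The genes described here encode the nuclear-encoded subunits of the respiratory chain and of the ATP synthase. They were chosen by name, with earlier results of these data known. The rule takes protein-coding genes whose names start with NDUFA, NDUFB, NDUFC, NDUFS, NDUFV, UQCR, COX4 to COX8 or ATP5. SDHA, SDHB, SDHC and SDHD were added, and the assembly factors of the NDUFAF family were left out. This rule took 94 of the 57736 genes in the deposited tables, which carry 90 names: 40 of complex I, 4 of complex II, 8 of complex III, 18 of complex IV and 20 of complex V. Names such as ATP5D or ATP5I are those of the files, which use an older nomenclature. For 4 names the tables list a further gene ID, and each name was counted once, with the ID of the larger count. In NDUFB8, NDUFA7 and UQCR11 the regions of the IDs overlap, whereas the further ID of SDHD lies elsewhere on the chromosome and had 2 counts in all.

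RNA was sequenced from wild-type cells of a pair of human cancer lines, HepG2 from a hepatocellular carcinoma of the liver and Ls174 from a carcinoma of the colon. In each line, 3 libraries came from untreated cells (HepG2 control and Ls174 control) and 3 from cells kept for 24 h with HME, an extract of the red seaweed Hypnea musciformis, at 0.7 mg/ml according to the sample labels (HepG2 HME and Ls174 HME). The study's methods give a slightly higher concentration. The 12 libraries were made with a 3′ mRNA kit, so that reads stem from the end of polyadenylated transcripts and longer genes gain no reads from their length. The total counts ranged from 1790841 (HepG2 HME 3) to 3656662 (HepG2 control 1).

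The respiratory chain sits in the inner mitochondrial membrane and passes electrons from NADH and succinate to oxygen. Complex I (NADH dehydrogenase) and complex II (succinate dehydrogenase) feed electrons to ubiquinone, complex III (cytochrome bc1) passes them to cytochrome c, and complex IV (cytochrome c oxidase) gives them to oxygen. Complexes I, III and IV pump protons, and complex V, the ATP synthase, lets the protons back and makes ATP. Most subunits are encoded in the nucleus and imported, while a few core subunits of complexes I, III, IV and V are encoded in mitochondrial DNA; the latter were not analysed here. NRF1, the ETS factor GABP and YY1 are known regulators of many of these nuclear genes.

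The nuclear genes of this system are known for compact promoters without a TATA box, so the promoters of a few members with a change described below are shown together with the motifs of these regulators. They span 250 bases before to 50 bases after the transcription start and come from RefSeq (GRCh38.p14), a later build than that of the counts. Of the 90 names, 71 were matched to a promoter, and 19 were not. Capitals mark matches, on either strand, to the motifs of NRF1 (GCGCANGCG), ETS or GABP (CCGGAAG) and YY1 (AAGATGGC). Every promoter shown holds a match, so they do not stand for all members with a change described below. Among the members called with HME in a line, the promoters of NDUFB10, NDUFB1, NDUFS8, ATP5E, NDUFA4, NDUFC1 and NDUFV3 hold no match to these motifs. The promoter of NDUFA10, a member described at the end, holds no match either. The members NDUFS7 (chr19:1383657-1383956, plus strand), NDUFA13 (chr19:19515975-19516274, plus strand) and ATP5I (chr4:674227-674526, minus strand) were lower with HME in HepG2 cells. The members NDUFA3 (chr19:54102605-54102904, plus strand), NDUFB7 (chr19:14572017-14572316, minus strand) and UQCRQ (chr5:132866392-132866691, plus strand) were higher with HME in Ls174 cells.
NDUFS7: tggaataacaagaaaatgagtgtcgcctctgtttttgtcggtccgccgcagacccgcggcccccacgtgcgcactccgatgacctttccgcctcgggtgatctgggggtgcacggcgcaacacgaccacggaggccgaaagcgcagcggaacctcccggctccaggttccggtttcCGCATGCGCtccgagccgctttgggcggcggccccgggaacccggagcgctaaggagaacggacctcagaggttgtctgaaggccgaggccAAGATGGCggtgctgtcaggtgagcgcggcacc
NDUFA13: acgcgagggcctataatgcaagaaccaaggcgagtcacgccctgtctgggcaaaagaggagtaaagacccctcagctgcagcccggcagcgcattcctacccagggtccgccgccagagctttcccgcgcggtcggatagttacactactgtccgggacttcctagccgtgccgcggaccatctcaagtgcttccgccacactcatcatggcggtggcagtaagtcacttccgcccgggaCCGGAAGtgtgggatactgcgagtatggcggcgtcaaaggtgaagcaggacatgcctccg
ATP5I: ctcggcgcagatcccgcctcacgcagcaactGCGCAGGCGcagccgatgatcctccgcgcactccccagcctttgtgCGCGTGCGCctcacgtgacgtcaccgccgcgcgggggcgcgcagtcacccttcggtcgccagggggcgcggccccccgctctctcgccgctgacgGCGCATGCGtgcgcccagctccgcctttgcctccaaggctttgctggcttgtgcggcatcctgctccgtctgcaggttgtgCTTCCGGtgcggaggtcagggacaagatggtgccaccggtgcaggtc
NDUFA3: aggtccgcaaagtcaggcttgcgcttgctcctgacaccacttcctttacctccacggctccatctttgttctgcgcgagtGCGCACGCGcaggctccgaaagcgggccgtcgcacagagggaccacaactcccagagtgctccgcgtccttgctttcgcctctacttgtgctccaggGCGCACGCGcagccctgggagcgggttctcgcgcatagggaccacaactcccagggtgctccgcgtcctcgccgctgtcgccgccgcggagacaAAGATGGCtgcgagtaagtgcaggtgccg
NDUFB7: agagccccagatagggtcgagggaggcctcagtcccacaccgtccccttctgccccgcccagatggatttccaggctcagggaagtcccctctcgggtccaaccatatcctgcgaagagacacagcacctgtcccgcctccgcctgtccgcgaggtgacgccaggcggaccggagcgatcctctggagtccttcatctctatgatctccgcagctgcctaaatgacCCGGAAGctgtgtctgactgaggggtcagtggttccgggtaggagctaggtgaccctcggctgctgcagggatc
UQCRQ: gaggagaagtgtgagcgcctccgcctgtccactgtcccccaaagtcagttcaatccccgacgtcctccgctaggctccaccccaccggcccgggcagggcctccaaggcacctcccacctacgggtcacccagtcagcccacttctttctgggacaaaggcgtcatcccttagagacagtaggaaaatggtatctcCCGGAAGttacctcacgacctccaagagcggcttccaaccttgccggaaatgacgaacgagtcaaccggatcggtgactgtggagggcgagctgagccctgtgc

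Among the 65 tested members with a promoter, 21 (32.3%) held the NRF1 motif, against 11.02% of the 15842 promoters of protein-coding genes in the same table. The motif of ETS or GABP was found in 29.2% of the members and 14.2% of all promoters, and that of YY1 in 16.9% and 3.91%. The SP1 motif (GGGCGG), which is common in promoters of many kinds, was present in 58.5% of both sets, and the ERR motif (TCAAGGTCA) in 1.54% of the members and 0.24% of all promoters. These shares describe letters in a window and not binding of a factor. The NRF1 motif occurred in 4 of the 9 promoters of members lower with HME in HepG2 cells and in 2 of the 8 promoters of members higher with HME in Ls174 cells. For ETS or GABP these counts were 2 of 9 and 2 of 8, for YY1 1 of 9 and 2 of 8, and for SP1 4 of 9 and 4 of 8. The ERR motif occurred in 0 of each.

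Levels are given as CPM, counts scaled to a common library total after TMM normalization over all 12 libraries. A level is thus relative to the other genes of a library, and it is not the plain share of its counts. In such bulk libraries, fewer cells of a type and less RNA per cell cannot be told apart. A group of 80 members passed the filter on low counts and was tested in each line. For 54 of these, over 90% of the counts lay in a single 3′ region, and under 50% of that region was coding sequence in each of the 80. Their mean levels over all libraries ran from 12.4 CPM (ATP5S) to 1526 CPM (ATP5G3), with a median of 233 CPM. The other 10 names were not tested. Of these, 7 had no count in any library (the read-through genes NDUFC2-KCTD14 and ATP5J2-PTCD1, and the isoform genes COX4I2, COX6A2, COX6B2, COX7A1 and COX7B2), and in a single library a count of 0 allows a level of up to 0.768 to 1.87 CPM, by counting error alone. NDUFA4L2 had 1 count and COX8C had 5 counts over all libraries, and ATP5L2, a near copy of ATP5L, lay between 1.02 and 9.34 CPM. The forms of COX4, COX6A, COX7A and COX8 that are known from most tissues (COX4I1, COX6A1, COX7A2, COX8A) were read in each line, and the forms known from muscle, lung, testis or hypoxic cells were at or near 0.

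The members took 2.05% to 2.32% of all counts in HepG2 control and 1.89% to 2.01% in HepG2 HME libraries. In Ls174 cells they took 2.71% to 3.02% in control and 3.31% to 3.59% in HME libraries. Markers of the labelled cell types differed between the lines. The summed level of 10 hepatocyte markers was 18601 to 22544 CPM in HepG2 control and 13458 to 14827 CPM in HepG2 HME libraries, against 23.1 to 186 CPM in Ls174 libraries, and CDX1 reached 76.8 to 207 CPM in Ls174 and at most 0.808 CPM in HepG2 libraries. The library HepG2 HME 2 held COL1A1 at 551 CPM and COL1A2 at 408 CPM, genes of fibroblast collagen that did not exceed 6.06 CPM in the other HepG2 libraries, and the part of these transcripts in the results was not tested. The sum of 10 intestinal markers, CDX1 among them, was 713 to 1071 CPM in Ls174 and 125 to 399 CPM in HepG2 libraries. Not all of these markers followed CDX1. VIL1 was at 42.3 to 79.2 CPM in Ls174 and at 52.9 to 188 CPM in HepG2 libraries. KRT20 did not exceed 1.41 CPM in any library, and MUC2 reached at most 2.17 CPM in Ls174 libraries. EPCAM alone was at 326 to 596 CPM in Ls174 and at 54.8 to 190 CPM in HepG2 libraries. The hepatocyte marker ALB, at 0 in Ls174 control 1 and 2, was at 45.1 CPM in Ls174 control 3, at 16.4 and 9.53 CPM in HME 1 and HME 3 and at 0 in HME 2.

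A control library of each line lay apart from its 2 companions, replicate 2 in HepG2 and replicate 1 in Ls174 cells. For the members this was marked. HepG2 control 2 was above all 5 other HepG2 libraries for 24 of the 80 tested members and below all of them for 43. It differed by more than 1 log2 unit from the mean of the other controls for 52.5% of the members, against 35.7% of all genes tested. ATP5I stood 2.18 log2 units above and ATP5SL 2.98 below. Ls174 control 1 was above the other 5 libraries of its line for 15 members and below them for 41, and 18.8% of the members differed by more than 1 log2 unit, against 32.9% of all genes. Both libraries deviated in similar genes, with a Spearman correlation across the 80 members of 0.64 (0.44 across 9871 genes). The deviation of the members also moved with the GC content of their main 3′ region, with Spearman correlations across genes of 0.41 in HepG2 control 2 and 0.23 in Ls174 control 1 (0.25 and 0.11 over all genes tested). These correlations are descriptions, since genes of a library share its preparation. The counts of called members, the summed levels and the fitted changes of the genes that passed a rule are therefore given with and without these libraries. The part of GC content in the results was not tested beyond an offset for it.

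**Figure D1:**
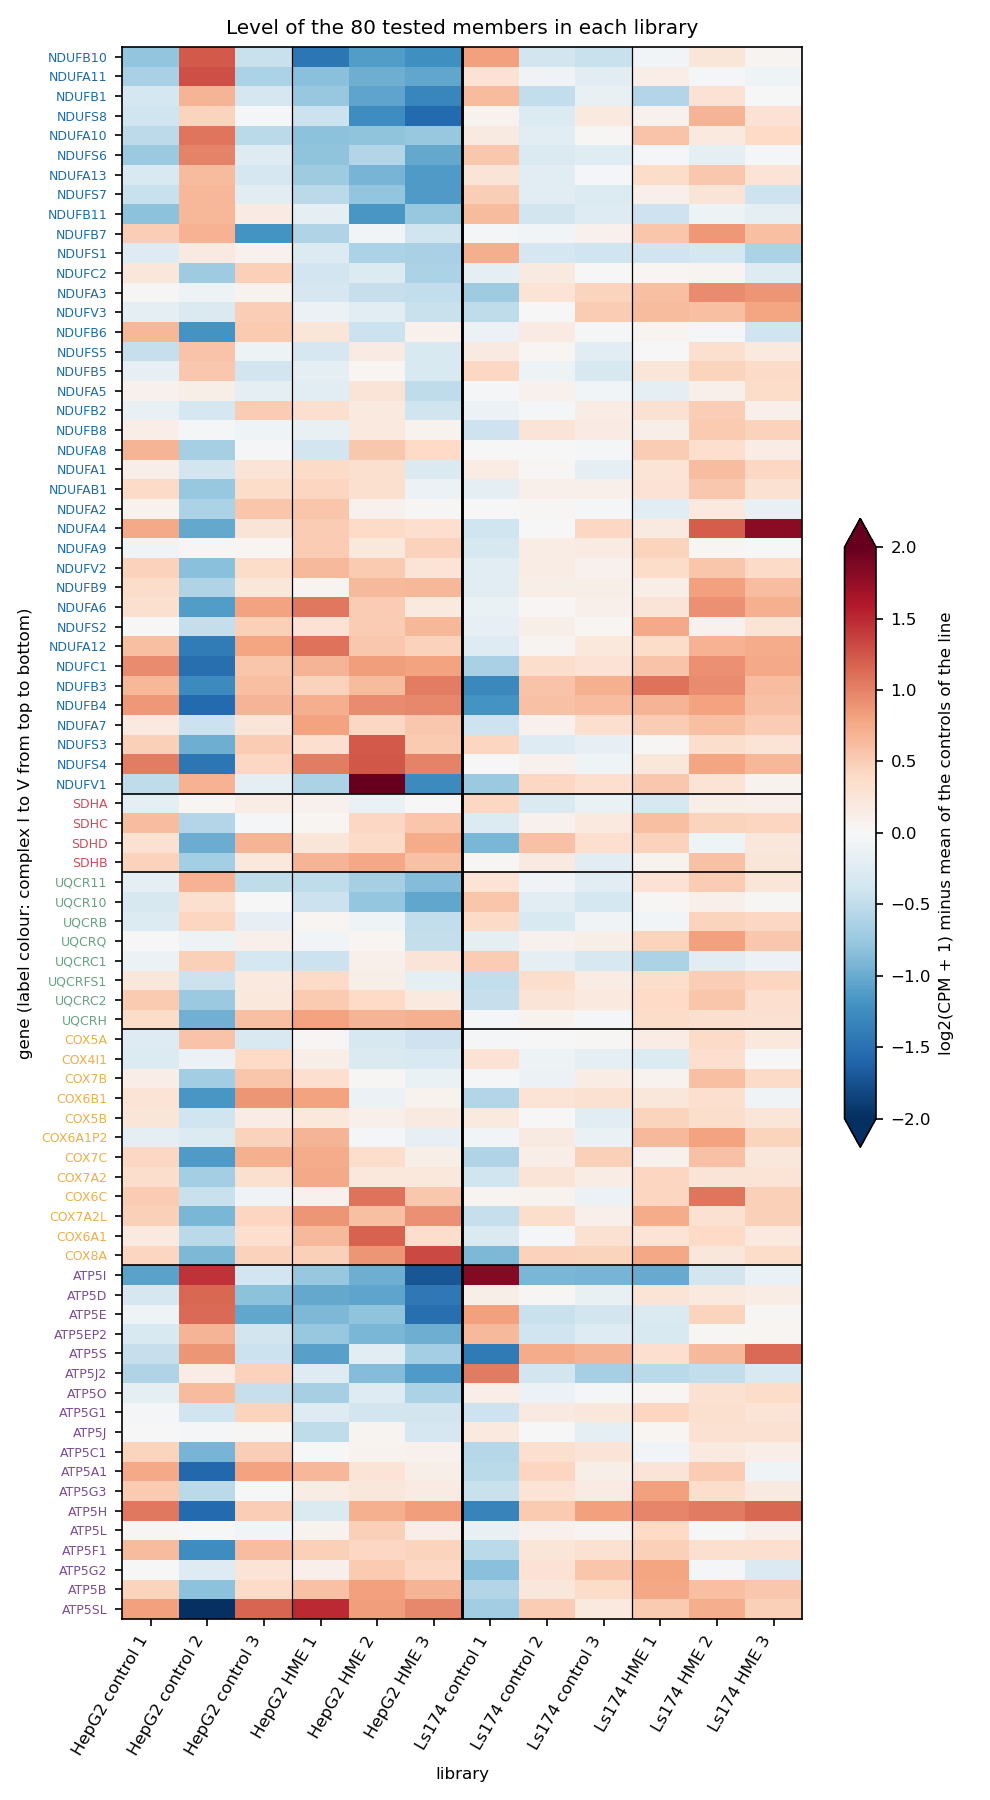
Level of the 80 tested members in each of the 12 libraries, as log2(CPM + 1) minus the mean of the controls of the same line; rows are genes, ordered by complex I to V and within a complex by the log2 fold change in HepG2, and colours beyond 2 in either direction are cut off. HepG2 control 2 and Ls174 control 1 differ from the other controls of their line, red for members such as ATP5I and blue for members such as NDUFB4.

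In HepG2 cells, the TMM-scaled levels of the members as a whole did not shift with HME beyond the spread of the libraries. As plain shares of all counts the groups did not overlap. These shares were 2.32%, 2.05% and 2.32% in the controls and 2.01%, 1.91% and 1.89% with HME. Called lower were 6 members of complex I, 1 of complex III and 4 of complex V, which include ATP5EP2, a processed copy of ATP5E. All of these had their highest level in the same control. The summed level of all members was 22818, 23939 and 22909 CPM in the controls and 22173, 23833 and 20286 CPM with HME, and the groups overlapped. The log2 ratio of the sums was -0.06 with libraries scaled within the line, and 0.02 without control 2. A member was called where its log2 fold change lay beyond 0.58 in size with p under 0.05 before adjustment, the limits of the study's methods, and also at an adjusted p under 0.05 (edgeR's quasi-likelihood test with Benjamini-Hochberg adjustment over all genes tested). By the former rule 11 members were lower and 0 higher, where 10.9% of all genes tested were lower and 11.3% higher. By the latter rule 0 members were called, against 3.31% of all genes, and the lowest adjusted p of a member was 0.131. DESeq2 called 1 member (NDUFB10). The median log2 fold change of the 80 members was 0.09, against -0.04 over all 11343 genes tested, with 44 members above 0 and 36 below. With scaling by library size alone this median was -0.09, beside -0.20 over all genes, and 15 members were called, all lower, as were 15.2% of all genes. The groups did not overlap for 12 members in the lower and 9 in the higher direction, that is 15.0% and 11.3% of the members, beside 15.3% and 15.5% of all genes tested.

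All 11 members called lower in HepG2 cells had their highest HepG2 level in control 2. Without that library, 3 members were called lower and 0 higher (10.1% of all genes were called lower), and 0 at an adjusted p under 0.05. Of the 11 members, NDUFB1 and NDUFB10 remained called. NDUFC2, a membrane-arm subunit of complex I, was added at -0.72 ± 0.23 (SE), with -0.48 ± 0.35 in the fit on all libraries, where control 2 was its lowest control. The 11 members kept a negative log2 fold change in that fit, with a median of -0.50 in place of -1.12, and for 9 of them the HME libraries lay below both remaining controls. Leaving out HepG2 HME 2 gave 2 called members, both lower, beside 6.81% of all genes called lower, and leaving out HepG2 HME 3 gave 1, beside 6.14%.

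Complex I held 6 of the 11 members. NDUFB10, an accessory subunit of the membrane arm, was at 117, 473 and 149 CPM in the controls and at 73.2, 92.6 and 85.3 CPM with HME. All 3 HME libraries were below all controls, and control 2 was far above the rest. The log2 fold change was -1.58 ± 0.54 (SE), with an adjusted p of 0.131 from edgeR, and -0.59 ± 0.24 without control 2. The 3′ region of NDUFB10 (chr16:2011736-2012173 in hg19) overlaps that of RPS2 on the opposite strand, which had 120314 counts against 5752, and the sources used here do not say whether strand was used in counting. NDUFB1, another subunit of the membrane arm, was at 193, 392 and 195 CPM in the controls and at 145, 117 and 99.1 CPM with HME, again without overlap. Its log2 fold change was -1.12 ± 0.39 (adjusted p = 0.141, edgeR) and -0.62 ± 0.24 without control 2.

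NDUFA13, known also as GRIM-19 and placed where the arms of complex I meet, was at 375, 719 and 367 CPM in the controls and at 282, 241 and 209.6 CPM with HME. The HME libraries were the lowest 3 of the line. A log2 fold change of -1.01 ± 0.38 was fitted (adjusted p = 0.168, edgeR), and -0.53 ± 0.23 without control 2. NDUFS8 and NDUFS7 carry iron-sulfur clusters on the path of electrons to ubiquinone and belong to the conserved core. NDUFS8 was at 53.2, 95.9 and 68.3 CPM in the controls and at 52.2, 29.3 and 23.4 CPM with HME, and NDUFS7 was at 39.0, 86.0 and 46.1 CPM and at 36.8, 30.8 and 24.0 CPM. In each case the highest HME library was just under the lowest control. Their log2 fold changes were -1.04 ± 0.40 and -0.90 ± 0.40, with adjusted p values of 0.174 and 0.219 (edgeR), and -0.71 ± 0.33 and -0.40 ± 0.26 without control 2. NDUFA11, an accessory membrane subunit, was at 286, 1096 and 289 CPM in the controls and at 249.7, 228 and 217 CPM with HME, a log2 fold change of -1.30 ± 0.55 that was -0.24 ± 0.22 without control 2. Most of its fold change was lost without that library.

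NDUFV1, which binds NADH and the flavin of complex I, was singled out after its values were seen. It was at 731 CPM in HepG2 HME 2 and at 83.9 and 53.5 CPM in the other HME libraries, beside 91.4, 212 and 116 CPM in the controls. The log2 fold change was 1.04 ± 0.85 with all libraries and -1.01 without HME 2, so a single library set its direction. Over complex I, with 38 tested members, 20 had a log2 fold change above 0 and 18 below.

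Complexes II and IV had no called member in HepG2 cells. SDHA, the flavoprotein of succinate dehydrogenase, was at 120.2, 141 and 152 CPM in the controls and at 146, 125 and 138 CPM with HME. Its iron-sulfur partner SDHB was at 51.6, 23.0 and 43.6 CPM and at 60.1, 64.7 and 56.5 CPM, without overlap, with a log2 fold change of 0.63 ± 0.33 (adjusted p = 0.293, edgeR) and 0.41 ± 0.23 without control 2. The membrane anchors SDHC and SDHD overlapped between the groups. Complex II reads carry a limit, since pseudogenes of SDHA held 40.2% as many counts as SDHA itself. In complex IV, 10 of 12 tested members had a log2 fold change above 0, and the summed level was 5013, 3315 and 5345 CPM in the controls and 5654, 5822 and 5380 CPM with HME, a ratio of 1.23 without overlap. Without control 2, which was lowest, the ratio was 1.08. COX8A, the ubiquitous form of the smallest subunit, was at 601, 239.8 and 616 CPM in the controls and at 624, 827 and 1118 CPM with HME, with a log2 fold change of 0.85 ± 0.41 (adjusted p = 0.253, edgeR) and 0.56 ± 0.28 without control 2. It was called higher once GC content was offset. COX6A1 gave 0.74 ± 0.35 and COX7A2L 0.71 ± 0.38, neither passed, and without control 2 they were 0.57 ± 0.28 and 0.42 ± 0.23.

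In complex III, UQCR10, a small subunit, was the only called member, at 165, 257 and 204 CPM in the controls and at 152, 120.2 and 99.7 CPM with HME. The groups did not overlap, and the log2 fold change was -0.75 ± 0.33 (adjusted p = 0.221, edgeR) and -0.50 ± 0.25 without control 2.

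Complex V held 4 called members, and its summed level was 7472, 9033 and 6708 CPM in the controls and 6213, 6896 and 5914 CPM with HME. These sums overlapped, with a ratio of 0.820, or 0.894 without control 2. ATP5D and ATP5E encode the delta and epsilon subunits of the central stalk that turns inside the catalytic head. ATP5D was at 29.3, 84.1 and 20.6 CPM in the controls and at 17.8, 17.3 and 13.2 CPM with HME, and ATP5E was at 1016, 2386 and 524 CPM and at 582, 619 and 378 CPM. ATP5D did not overlap between the groups, whereas ATP5E did. The log2 fold changes were -1.47 ± 0.54 and -1.34 ± 0.54 (adjusted p = 0.157 and 0.188, edgeR), and without control 2 they were -0.56 ± 0.30 and -0.48 ± 0.33. ATP5EP2, a processed copy of ATP5E that the files list as protein-coding, was at 257, 507 and 246 CPM in the controls and at 187, 168 and 162 CPM with HME, with -0.98 ± 0.38 on the log2 scale and -0.48 ± 0.22 without control 2, and reads of so similar a pair are uncertain. ATP5I, subunit e of the membrane part, was at 346, 1993 and 561 CPM and at 432, 371 and 221 CPM, with overlap. Its log2 fold change of -1.54 ± 0.63 was -0.34 ± 0.33 without control 2.

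**Figure D2:**
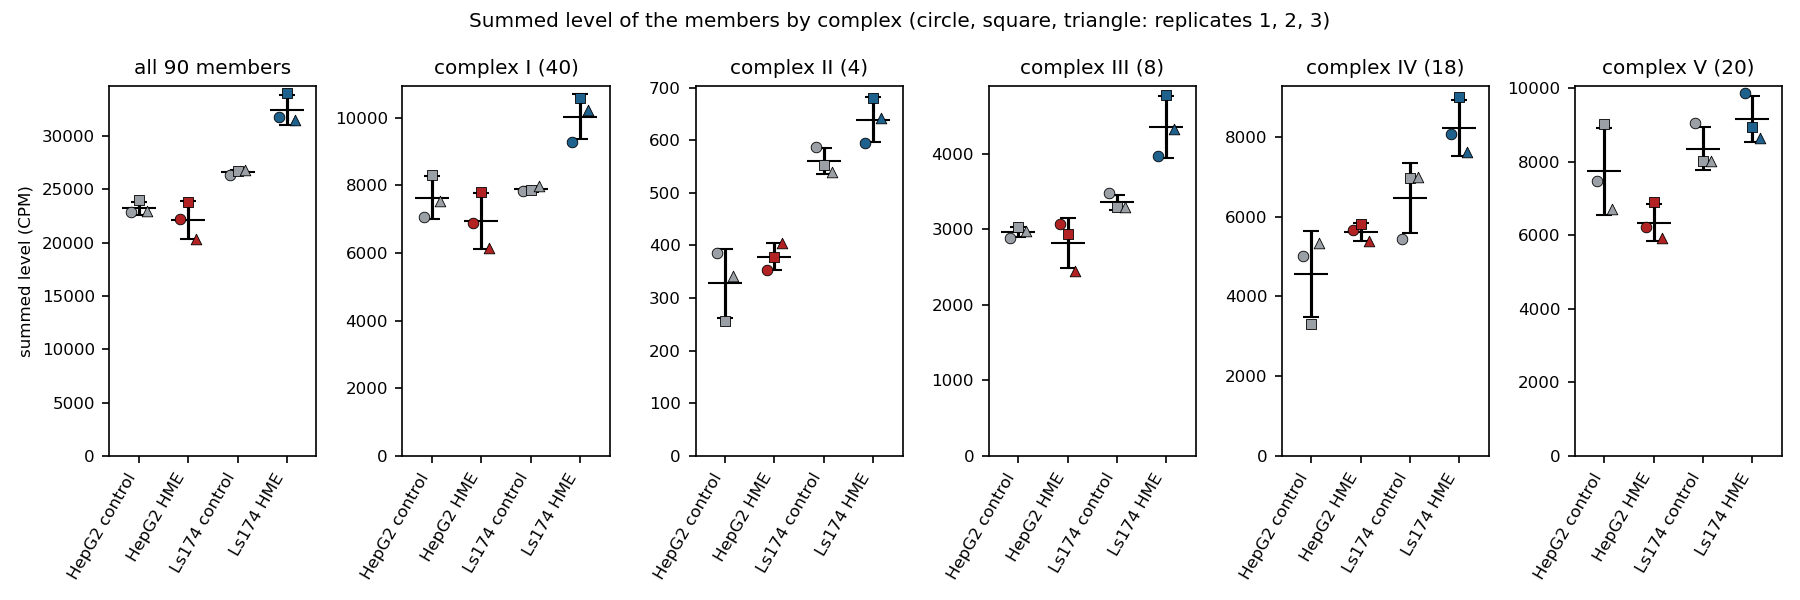
Summed level (CPM, axis from 0) of all 90 members and of the members of each complex in each library; points are libraries, and the bar and whiskers give the mean and SD of 3 replicates. In Ls174 the HME libraries lie above all controls for all members, from 31470 to 33989 CPM against 26375 to 26817 CPM, while in HepG2 the groups overlap.

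In Ls174 cells, the summed level of the members was higher with HME, most members had a small positive log2 fold change, and no member passed after adjustment. Their summed level was 26375, 26667 and 26817 CPM in the controls and 31758, 33989 and 31470 CPM with HME, which is 26620 ± 224 against 32406 ± 1379 CPM (SD, n = 3) and a ratio of 1.22. The groups did not overlap, and the ratio was 1.21 without control 1. By the rule of p and fold, 10 members were higher and 0 lower, beside 4.11% of all genes higher and 7.85% lower. At an adjusted p under 0.05, 0 members were called, beside 1.18% of all genes, and the lowest adjusted p of a member was 0.160, while 13 members had an unadjusted p under 0.05. DESeq2 called 1 member (NDUFB7). The median log2 fold change of the 80 members was 0.32, against -0.003 over all 11319 genes tested, and 63 members were above 0. All 12 tested members of complex IV were above 0, as were 28 of 38 in complex I, 3 of 4 in complex II, 6 of 8 in complex III and 14 of 18 in complex V. The median lay between 0.27 and 0.34 under the other scalings. Between the groups, 29 members (36.3%) did not overlap in the higher and 0 in the lower direction, where 11.6% and 12.2% of all genes did not.

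Of the 10 members called higher in Ls174 cells, 7 had their lowest Ls174 level in control 1, as did 41 of the 80 tested members. All 10 stayed above 0 without that library, with a median of 0.56 in place of 0.66. Without Ls174 control 1, 6 members were called higher by p and fold (6.4% of all genes), and 4 had an adjusted p under 0.05 (8.39% of all genes). These 4 were NDUFB7, COX6A1P2, NDUFB5 and COX6C, and 69 of the 80 members were above 0. The number called also turned on a single HME library, since 1 member was called without HME 2 and 4 without HME 3, all higher, beside 2.44% and 2.56% of all genes called higher. Without control 3, 11 were higher and 2 lower (ATP5I and ATP5J2), beside 5.45% and 9.21% of all genes.

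Complex I held 7 of the 10 members. NDUFB7, a subunit on the intermembrane face of the membrane arm, was at 62.0, 60.8 and 67.1 CPM in the controls and at 92.9, 116 and 95.9 CPM with HME. The controls lay within a narrow range, and all HME libraries were above it. Its log2 fold change was 0.68 ± 0.19 (adjusted p = 0.160, edgeR), and 0.67 ± 0.17 without control 1 (adjusted p = 0.0235). The main 3′ region of NDUFB7 (chr19:14676693-14677077 in hg19) overlaps that of TECR on the opposite strand. NDUFA4 had the largest log2 fold change, 1.17 ± 0.39 (adjusted p = 0.248, edgeR), and 1.00 ± 0.32 without control 1. It carries a complex I name but is now counted as a subunit of cytochrome c oxidase. Its levels were 322, 423 and 568 CPM in the controls and 489, 984 and 1484 CPM with HME, so the groups overlapped, and the size of the change differed widely between HME libraries.

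NDUFA6, a matrix-arm subunit, was at 79.7, 88.8 and 93.7 CPM in the controls and at 104, 165 and 144 CPM with HME. NDUFA12, from the same arm, was at 42.8, 53.4 and 60.2 CPM and at 67.0, 83.9 and 86.7 CPM. Neither overlapped between the groups, and the log2 fold changes were 0.65 ± 0.22 and 0.59 ± 0.21, or 0.60 ± 0.19 and 0.49 ± 0.17 without control 1. Like NDUFA6 and NDUFA12, the small membrane-arm subunits NDUFA3 and NDUFC1 had their lowest level in control 1. The 3′ region of NDUFA3 overlaps that of TFPT on the opposite strand. NDUFA3 was at 40.3, 80.7 and 90.6 CPM in the controls and at 102, 129 and 124 CPM with HME, and NDUFC1 was at 104, 210.5 and 201 CPM and at 243, 309 and 279 CPM. Their log2 fold changes fell from 0.74 ± 0.29 and 0.68 ± 0.28 to 0.47 ± 0.17 and 0.44 ± 0.17 without control 1, though the groups did not overlap. NDUFV3, a subunit near the site of NADH oxidation, was the last of the 7, at 0.61 ± 0.27 (adjusted p = 0.367, edgeR) and 0.41 ± 0.18 without control 1. NDUFS4, which stabilises the same site, missed the fold limit at 0.577 ± 0.211, with 67.9, 71.4 and 63.2 CPM in the controls and 78.7, 117 and 108 CPM with HME, and passed it at 0.60 ± 0.19 without control 1.

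UQCRQ, a small subunit of complex III, was among the most abundant members. It was at 872, 1063 and 1087 CPM in the controls and at 1362, 1770.5 and 1458 CPM with HME, without overlap. The log2 fold change was 0.60 ± 0.21 (adjusted p = 0.268, edgeR) and 0.52 ± 0.18 without control 1. The complex III sum was 3355 ± 103 CPM in the controls and 4356 ± 408 CPM with HME (SD, n = 3). The ratio was 1.30, or 1.32 without control 1. UQCRC1, a core protein of the same complex, was at -0.36 ± 0.28, which did not pass, and at -0.04 ± 0.18 without control 1, and with all libraries UQCR10 (-0.01 ± 0.27) was the other member of the complex below 0.

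In complex IV, COX6C, the member with the highest level there, was at 1060.3, 1072 and 941 CPM in the controls and at 1378, 2155 and 1422 CPM with HME. All HME libraries were above all controls. Its log2 fold change was 0.68 ± 0.24 (adjusted p = 0.274, edgeR) and 0.72 ± 0.21 without control 1 (adjusted p = 0.0461). COX6A1P2, a processed copy of COX6A1 listed as protein-coding, was at 48.2, 56.5 and 45.6 CPM and at 78.7, 87.5 and 68.0 CPM, with a log2 fold change of 0.63 ± 0.20 (adjusted p = 0.217, edgeR) and 0.62 ± 0.18 without control 1 (adjusted p = 0.0396). COX6A1 itself was at 294, 354 and 444 CPM and at 432, 474 and 411 CPM, with overlap and 0.27 ± 0.21, or 0.14 ± 0.17 without control 1. Reads of such copies cannot be assigned with certainty.

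Complex V was the arm with the smallest ratio of summed levels in Ls174 cells, 1.10, and had no called member. Without control 1 the ratio was 1.14, close to 1.17 for complex II and 1.18 for complex IV. The control sum of complex V includes ATP5I, whose high level in control 1 is given below. ATP5G1, ATP5G2 and ATP5G3 encode the same mature subunit c of the rotating ring from different genes. ATP5G3 was at 1056, 1741 and 1608 CPM in the controls and at 2528, 1830.2 and 1617 CPM with HME, and ATP5G1 at 243, 369.7 and 382 CPM and at 440.1, 404 and 393 CPM. Only ATP5G1 did not overlap, with a log2 fold change of 0.31 ± 0.22, or 0.14 ± 0.16 without control 1. ATP5I had 3190.2 CPM in control 1 and 474 and 468 CPM in the other controls, beside 443, 687 and 813 CPM with HME. The log2 fold change was -1.11 ± 0.71 with all libraries and 0.47 ± 0.22 without control 1, so this library set its direction. Without control 3 it was -1.52 ± 0.66 and called lower. ATP5S and ATP5SL, which carry the prefix but are no subunits of the synthase, gave 0.47 ± 0.59 and 0.50 ± 0.30, or 0.06 ± 0.33 and 0.24 ± 0.18 without control 1.

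In complex II, SDHC, a membrane anchor, was at 109.7, 141 and 151 CPM in the controls and at 202, 180.3 and 179 CPM with HME, with a log2 fold change of 0.48 ± 0.19 (adjusted p = 0.342, edgeR) and 0.36 ± 0.16 without control 1. The other anchor, SDHD, was at 23.6, 68.9 and 57.6 CPM and at 63.4, 43.0 and 53.2 CPM. SDHA and SDHB overlapped between the groups.

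**Figure D3:**
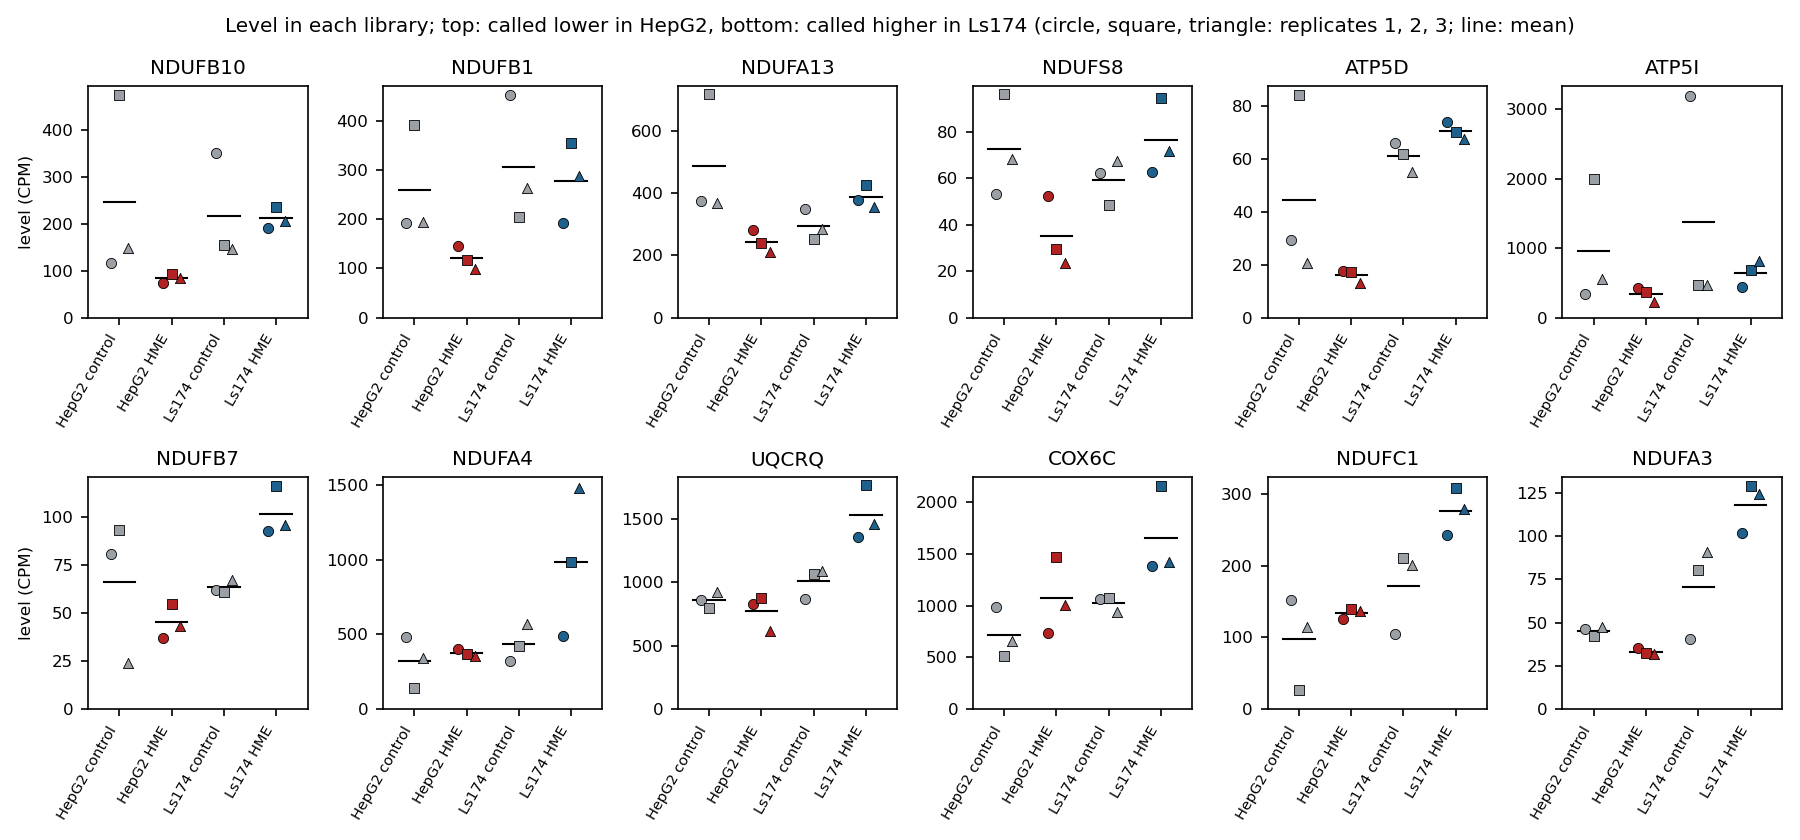
Level (CPM, axis from 0) in each library of 6 members called lower with HME in HepG2 (top) and 6 called higher with HME in Ls174 (bottom); points are libraries and the line is the mean of 3 replicates. In the top panels HepG2 control 2 is the highest HepG2 library, for example 473 CPM for NDUFB10 against 117 and 149 CPM in the other controls.

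The responses of the lines were set against each other. No member was called in both lines. Of the 11 members lower in HepG2 cells, 8 had a log2 fold change below 0 and 3 above 0 in Ls174 cells. Of the 10 members higher in Ls174 cells, 6 were above 0 and 4 below 0 in HepG2 cells. Among all 80 members, 43 were above 0 in both lines, 16 below 0 in both, 20 lower in HepG2 and higher in Ls174, and 1 the reverse. Across the members the log2 fold changes of the lines had a Spearman correlation of 0.48 (0.28 across 9871 genes), while the controls that lay apart deviated together in the lines, as given above.

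The difference between the responses, tested as an interaction on all 12 libraries, passed an adjusted p of 0.05 for 0 members, beside 0.644% of all 13040 genes tested. At an unadjusted p under 0.05, 9 members (11.3%) passed, beside 13.2% of all genes, each with a difference beyond 0.58 and a lower response in HepG2 than in Ls174 cells, as 5.75% of all genes had, and DESeq2 called 0 after adjustment. NDUFA13 had the smallest p value, with an interaction of -1.38 ± 0.42 on the log2 scale (adjusted p = 0.168, edgeR). Without HepG2 control 2 and Ls174 control 1, NDUFA13 at -1.15 ± 0.28 and NDUFB10 at -1.18 ± 0.28 passed (adjusted p = 0.0407 and 0.0368, edgeR), beside 3.25% of all genes. For NDUFA13 the HepG2 values were given above, and in Ls174 cells it was at 348, 252 and 284 CPM in the controls and at 378, 426 and 355 CPM with HME. So this subunit was lower in all HepG2 HME libraries and higher in all Ls174 HME libraries than in the controls of the line. The same held for ATP5D, NDUFA10 and NDUFA3, which makes 4 of the 80 members, beside 0.973% of the 9871 genes tested in both lines.

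**Figure D4:**
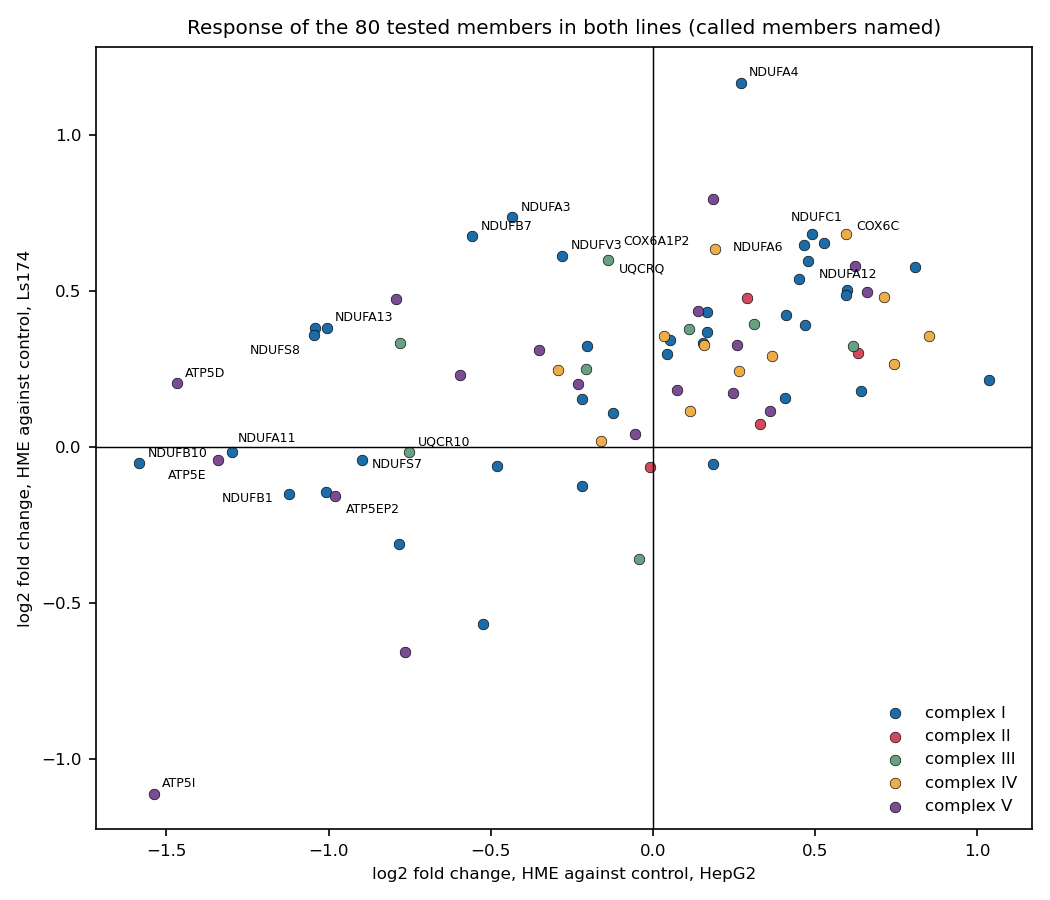
Log2 fold change with HME in HepG2 (x axis) against Ls174 (y axis) for the 80 tested members, coloured by complex, with the members called in either line named. Most members lie above 0 on the y axis (63 of 80), and those called lower in HepG2 lie to the left, close to 0 or above on the y axis except ATP5I.

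**Figure D5:**
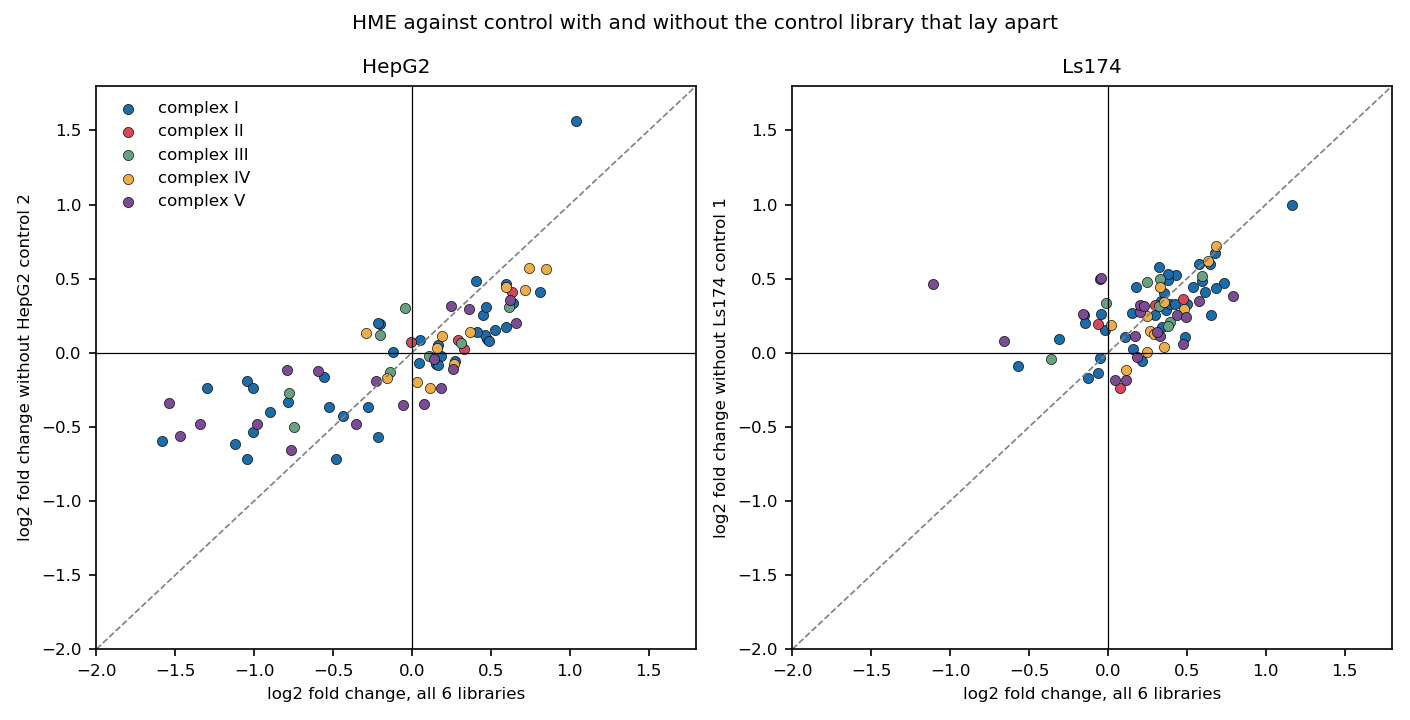
Log2 fold change of the 80 tested members with all 6 libraries of a line (x axis) and without the control that lay apart (y axis), for HepG2 and Ls174, coloured by complex; the dashed line marks equal values. In HepG2 the largest decreases shrink, as for ATP5I from -1.54 to -0.34, and in Ls174 ATP5I moves from -1.11 to 0.47.

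Untreated cells of the lines were compared to show where the levels differed before HME, and this comparison uses the same control libraries as those above. At an adjusted p under 0.05, 5 of the 80 members differed, beside 23.5% of all genes tested. The summed level of complex II was lower in HepG2 cells, at 328 ± 66.3 CPM against 560 ± 24.5 CPM in Ls174 cells (SD, n = 3). SDHC overlapped, at 198, 86.0 and 126 CPM in HepG2 against 109.7, 141 and 151 CPM in Ls174 cells. SDHA was at 120.2, 141 and 152 CPM against 321, 196 and 218 CPM and did not pass after adjustment. SDHB was at 51.6, 23.0 and 43.6 CPM in HepG2 and at 133, 148 and 113 CPM in Ls174 cells, a log2 difference of -1.70 ± 0.37 (adjusted p = 0.00867, edgeR). SDHD was at 15.3, 5.61 and 20.2 CPM against 23.6, 68.9 and 57.6 CPM, a log2 difference of -1.82 ± 0.54 (adjusted p = 0.0381, edgeR). The groups did not overlap for either gene, and without both controls that lay apart the differences were -1.43 ± 0.24 and -1.82 ± 0.27.

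In complex I, NDUFA7 and NDUFA9, accessory subunits of the matrix side, were lower in HepG2 cells by -1.25 ± 0.35 and -1.14 ± 0.31 on the log2 scale (adjusted p = 0.0313 and 0.0283, edgeR), and by -1.26 ± 0.24 and -1.31 ± 0.22 without both controls that lay apart. NDUFA9 was at 114, 123 and 124 CPM in HepG2 and at 216, 298 and 302 CPM in Ls174 controls. ATP5E was the member higher in HepG2 cells, at 1016, 2386 and 524 CPM against 338, 140.0 and 149 CPM, a log2 difference of 2.71 ± 0.65 (adjusted p = 0.0147, edgeR). Its main 3′ region (chr20:57600325-57605360 in hg19) overlaps TUBB1 on the opposite strand, which had 38 counts in all libraries against 16236. Without both controls that lay apart, 24 members differed, 7 higher and 17 lower in HepG2 cells, beside 44.0% of all genes, and the log2 difference of ATP5E was 2.43 ± 0.31.

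Genes around the complexes were taken from lists drawn up with earlier results known. Of 15 named assembly factors of complex I, 14 were tested. In HepG2 cells NDUFAF5, a methyltransferase acting on NDUFS7, was higher (21.8, 13.1 and 16.2 CPM in the controls, 35.2, 47.7 and 33.6 CPM with HME), and NUBPL, which delivers iron-sulfur clusters, was lower (45.4, 49.2 and 58.2 CPM, then 28.1, 28.6 and 25.8 CPM), by the rule of p and fold. Without control 2 they were at 1.10 ± 0.29 (adjusted p = 0.0487, edgeR) and -0.84 ± 0.24, and 1 of the 14 was higher and 3 were lower. In Ls174 cells none of these 14 was called by either rule, while 12 of them were above 0, or 9 without control 1. Among 24 tested assembly factors of complex IV, 2 were higher and 4 lower in HepG2 cells, and 2 were higher and 0 lower in Ls174 cells. The counts of this and the other lists stand beside the shares of all genes called higher and lower, 11.3% and 10.9% in HepG2 and 4.11% and 7.85% in Ls174 cells. Without the controls that lay apart, the counts were 2 higher and 3 lower, then 3 higher and 1 lower. In that fit CMC2 passed after adjustment in HepG2 cells, at 1.12 ± 0.27 (adjusted p = 0.0364, edgeR). In Ls174 cells COA4 passed at 0.64 ± 0.16 and COX17 at 0.579 ± 0.172 (adjusted p = 0.0198 and 0.0496, edgeR). Of all genes, 7.74% and 8.39% passed in these fits. With all libraries, the smallest p values were those of PET117 and COX11 in HepG2 cells (both lower) and of COA4 and COX10 in Ls174 cells (both higher). COX10, a gene of heme A synthesis, was among the higher ones in each line. It went from 18.6, 6.23 and 16.2 CPM to 42.7, 24.4 and 31.2 CPM in HepG2 cells, and from 6.39, 14.3 and 12.5 CPM to 20.4, 24.2 and 18.1 CPM in Ls174 cells. The groups did not overlap in either line. Neither change passed an adjusted p of 0.05 (0.125 and 0.312, edgeR), and the log2 fold changes of 1.26 ± 0.42 and 0.88 ± 0.34 were 0.98 ± 0.31 and 0.65 ± 0.25 without the controls that lay apart. Of the smaller lists of assembly factors, 1 of 6 for complex III was lower (LYRM7) and 1 of 4 for complex V was higher (TMEM70) in HepG2 cells by p and fold, 0 of 3 for complex II were called, and 0 of these were called in Ls174 cells. LYRM7 was at -1.42 ± 0.54 and, without control 2, at -0.72 ± 0.41, where it was no longer called, while TMEM70 was at 0.72 ± 0.30 and 0.61 ± 0.23.

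Of the subunits and carriers that the name rule leaves out, ETFA and ETFDH, which pass electrons from fatty acid oxidation to ubiquinone, were higher by p and fold in Ls174 cells. ETFDH was at 9.34, 20.5 and 12.8 CPM in the controls and at 35.3, 36.6 and 32.9 CPM with HME, a log2 fold change of 1.28 ± 0.31 (adjusted p = 0.108, edgeR) and 1.09 ± 0.23 without control 1 (adjusted p = 0.0082). ETFA was at 0.80 ± 0.25 and 0.61 ± 0.19. ETFB was at 0.14 with all libraries and at 0.68 ± 0.17 without control 1 (adjusted p = 0.0222, edgeR). CYC1, the cytochrome c1 of complex III, and CYCS, cytochrome c, were not called in either line.

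In the list of 21 regulators of respiratory genes and of mitochondrial DNA, GABPB1, a subunit of GABP, passed an adjusted p of 0.05 in HepG2 cells. It was at 8.60, 5.61 and 8.89 CPM in the controls and at 45.9, 35.4 and 37.2 CPM with HME, a log2 fold change of 2.35 ± 0.34 (adjusted p = 0.00633, edgeR) and 2.24 ± 0.29 without control 2. All HME libraries were several times above all controls. In Ls174 cells GABPB1 was at 14.8, 12.1 and 11.8 CPM and at 17.1, 11.02 and 9.86 CPM, with a log2 fold change of -0.03 ± 0.33, or 0.09 ± 0.30 without control 1. The coactivator PPARGC1A and the nuclear receptor ESRRA were higher in HepG2 cells by p and fold alone, at 1.09 ± 0.42 and 0.96 ± 0.36, and 1.02 ± 0.42 and 1.14 ± 0.33 without control 2. NRF1, YY1 and TFAM were not called in either line. In the tricarboxylic acid cycle, 1 of 13 genes was called lower in HepG2 cells (SUCLG2) and 1 higher in Ls174 cells (OGDH), and 0 in either line without the controls that lay apart. Among the carriers of ATP, ADP and phosphate, 0 were called in each line. Of the genes of oxygen-dependent switching, the mitophagy receptors BNIP3 and BNIP3L were higher in HepG2 cells by p and fold alone. They were at 0.84 ± 0.34 and 1.14 ± 0.41, and at 0.61 ± 0.23 and 0.94 ± 0.35 without control 2. LONP1, from the same list, was at 0.40 in Ls174 cells with all libraries. Without control 1 it was at 0.61 ± 0.16 (adjusted p = 0.0269, edgeR).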

How the data were processed

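The authors prepared 3′ mRNA libraries (QuantSeq, Ion Proton), checked reads with FASTQC, aligned them with Hisat2 to hg19 (GRCh37) and passed the alignments to metaseqR2; the submitters' notes also list Bowtie2 and Trimmomatic. The deposited values are whole-number counts per 3′ region, not normalized. Versions, and the use of strand in counting, are not given in the sources used here. Nothing ties replicates to separate passages, so p values measure the spread between these samples.

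Regions were summed per gene. Regions that overlap those of other genes were kept. Tests used edgeR 4.0.16 (TMM, filterByExpr, quasi-likelihood F test, two-sided) in R 4.3.3, per line on 6 libraries and for the interaction on 12, with Benjamini-Hochberg adjustment over all genes tested, and DESeq2 1.42.0 as an alternative. The SE was derived from the F statistic. Calls used p under 0.05 with a log2 fold change beyond 0.58, or an adjusted p under 0.05. A floor of 3 counts was used, and floors cover counting error only. Tables and figures used Python 3.11.15, pandas 2.3.3 and matplotlib 3.10.9. The fits were tested on simulated data.

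The members and lists were chosen with earlier results of these data known. The genes named are the 10 members with the smallest p in each line, those called in the interaction or, with the largest differences, between untreated lines, the leading member of each complex, the SDH genes, isoform and copy genes, and, for each list, genes called after adjustment or the pair with the smallest p. Named after their values were seen were NDUFV1, UQCRC1, UQCR10, NDUFV3, NDUFC2, NDUFB5, NDUFA9, NDUFA10 and ATP5J2. From the lists, these were COX10 in HepG2 cells, LYRM7, TMEM70, ESRRA, PPARGC1A, CMC2, COX17, ETFB and LONP1. Alternatives were other scalings, filters, a GC offset, the replicate number as a block, a binomial test, other fold limits and leaving out each library; fits of the lists without the controls that lay apart were added after seeing the data.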

Additional observations from a re-analysis of the deposited data

Results flagged for a closer look

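For 4 members, every HME library lay below every control in HepG2 cells and above every control in Ls174 cells, so that the lines moved in opposite directions, beside 0.973% of the 9871 genes tested in both lines. The difference of the log2 fold changes (HepG2 minus Ls174) was -1.65 for ATP5D, -1.40 for NDUFA10, -1.19 for NDUFA3 and -1.38 for NDUFA13. The interaction test did not pass for any of them after adjustment (adjusted p = 0.231, 0.261, 0.229 and 0.168, edgeR). Without HepG2 control 2 and Ls174 control 1, the values were -0.92, -0.77, -0.98 and -1.15, and NDUFA13 passed (adjusted p = 0.0407, edgeR). NDUFA10, an accessory subunit of complex I, was at 197, 599.9 and 195 CPM in HepG2 controls and at 160.3, 162 and 167 CPM with HME, and at 132, 101 and 118 CPM in Ls174 controls and at 173, 133 and 153 CPM with HME. The part of GC content and of the controls that lay apart in these differences was not tested beyond these fits.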

How the results depend on the processing

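Counts of called members are given with the share of all genes called in the same fit. In HepG2 cells the number called by p and fold (11, with 22.2% of all genes) was 5 with the replicate number as a block (18.3%), 7 with a GC offset (6 lower and 1 higher, 22.2%), 19 with a binomial test on summed counts (15 lower and 4 higher, 40.0%), and 1 to 17 with a library left out (14.5% to 24.2%). At an adjusted p it was 5 without a filter on low counts (5.75%), 1 with DESeq2 (9.11%), 62 with the binomial test (62.9%), which takes no account of the spread between replicates and was read at this threshold after seeing the data, and 0 in every fit without a library. The log2 ratio of summed levels was -0.20 with scaling by library size alone, which also moved the median of all genes in HepG2 cells from -0.04 to -0.20. In Ls174 cells the number called by p and fold (10, with 11.95% of all genes) was 5 with scaling by library size (11.97%), 16 without a filter (14 higher and 2 lower, 10.4%), 6 with a GC offset (12.4%), 1 with a fold limit of 1 on the log2 scale, and 1 to 13 with a library left out (7.15% to 15.6%), where 2 of the 13, without control 3, were lower. At an adjusted p it was 2 without a filter (2.68%), 1 with DESeq2 (3.83%), 62 with the binomial test (48.9%), and 0 to 4 with a library left out. The interaction gave 2 members without both controls that lay apart, an alternative chosen after seeing the data, and 0 with any single library left out. Between untreated lines the number called (5, with 23.5% of all genes) was 8 without a filter (16.97%), 3 with at least 10 counts in every library (11.97%), 8 with DESeq2 (29.1%), 2 with the replicate block (15.9%), 24 without both controls that lay apart (44.0%), and 1 to 8 with a library left out. The cause of these shifts was not tested. ATP5I in Ls174 cells changed its sign with an unadjusted p under 0.05 on each side, at -1.52 without control 3 and 0.47 without control 1. The 10 members with the smallest p of each line kept their sign in every alternative. Deviations of equal-numbered control and HME libraries had correlations of -0.17, 0.09 and -0.12 in HepG2 and -0.03, -0.01 and -0.05 in Ls174 cells. These few values gave no sign of pairing by replicate number but cannot exclude it. At an adjusted p, 0 members were called within either line with or without the block. Among all genes, the number called went from 375 to 349 in HepG2 and from 134 to 0 in Ls174 cells with the block.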
